A study of Mus musculus with 3 samples.

Results

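Of the 74494 PU.1 peaks called in the library PU.1_2, 11903 had their centre more than 100 kb from the span of every protein-coding gene. These gene desert peaks made up 16.0% of the list and were chosen by distance alone, on build mm10 with the RefSeq gene table. A span runs from the first to the last base of a gene, so a peak inside a long intron is not a desert peak. The chromatin came from i660BM, a C57BL/6 mouse pro-B cell line that carries a doxycycline-inducible PU.1 system. Cells were given 70 ng/ml doxycycline for 24 h, and PU.1-bound chromatin was precipitated with the rabbit polyclonal antibody T-21 (ChIP-seq). The libraries PU.1_2 and PU.1_3 both come from induced cells, and 1 input library without antibody or treatment was not used here. Peaks of uninduced cells were not analysed here, so no value below separates induced PU.1 from PU.1 already present. Nothing in the labels says that the libraries came from separate cultures, and their spread may be technical.

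PU.1, encoded by Spi1, is an ETS-family transcription factor that B cells and myeloid cells need for their development, and it binds purine-rich DNA around a GGAA core. Much of its binding in blood cells lies away from promoters, at enhancers, which can act on a promoter over long distances. Gene deserts are long stretches without protein-coding genes. Some are known to hold distant enhancers of developmental and growth-control genes, such as the desert beside Myc.

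The desert peaks were not all free of genes. Antigen receptor loci count as deserts here because their V, D and J segments are not annotated as protein-coding, and 439 desert peaks (3.69%) lay in them. Of these, 239 lay in the Igk light chain locus, 126 in the Igh heavy chain locus, 63 in Tra and 10 in Igl. A further 1 lay in Trg and 0 in Trb, and the 4 in Trd also lie within Tra. With the segments counted as genes, 11464 desert peaks were left. Genes not annotated as protein-coding overlapped 1766 desert peaks (14.8%), of which 1509 overlapped a long non-coding RNA (lncRNA). They are called non-coding genes below, although they include antigen receptor segments, such as the V segments under 95 peaks.

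No genome sequence was used, so the sequences that can be shown are promoter windows of lncRNAs that lie wholly inside a desert peak. Each window runs from 250 bases before to 50 bases after a transcript's start (RefSeq, GRCm38.p6, which has the chromosome coordinates of mm10), and 57 lncRNA genes had such a window. Of the 7 below, Gm45805 and Gm40930 lie under peaks found in both libraries. The others were chosen from the windows that hold GAGGAAGT, a match to the known PU.1 motif. They lie in the deserts beside Myc (Gm20740), Jun (Gm12708), Id2 (Gm46343), Bcl2l11 (Morrbid) and Fat4 (Gm42215). Because of this choice, the 7 do not show how common GAGGAAGT is among the 57. Capitals mark GAGGAA and its complement TTCCTC, a purine-rich run with the GGAA core, or the longer GAGGAAGT and its complement ACTTCCTC, a match to the known PU.1 motif. All are given on the strand of the lncRNA.
Gm45805, chr8:126758304-126758603, minus strand: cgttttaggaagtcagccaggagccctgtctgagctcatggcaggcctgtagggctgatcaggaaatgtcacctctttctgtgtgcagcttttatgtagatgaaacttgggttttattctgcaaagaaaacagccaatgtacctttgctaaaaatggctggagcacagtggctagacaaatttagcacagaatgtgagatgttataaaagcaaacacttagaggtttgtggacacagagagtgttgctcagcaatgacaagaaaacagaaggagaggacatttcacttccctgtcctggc
Gm40930, chr13:44504378-44504677, plus strand: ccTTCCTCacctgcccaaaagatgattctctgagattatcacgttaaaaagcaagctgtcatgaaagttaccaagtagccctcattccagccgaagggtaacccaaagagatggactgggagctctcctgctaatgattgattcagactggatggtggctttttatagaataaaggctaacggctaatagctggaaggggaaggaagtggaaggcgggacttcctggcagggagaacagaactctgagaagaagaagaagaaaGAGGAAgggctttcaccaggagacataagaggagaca
Gm20740, chr15:63479559-63479858, minus strand: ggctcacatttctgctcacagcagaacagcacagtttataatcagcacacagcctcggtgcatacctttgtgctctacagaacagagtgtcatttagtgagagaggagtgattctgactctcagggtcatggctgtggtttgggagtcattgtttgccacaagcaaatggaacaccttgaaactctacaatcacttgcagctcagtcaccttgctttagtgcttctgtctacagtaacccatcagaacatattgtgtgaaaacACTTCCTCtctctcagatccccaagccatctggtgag
Gm12708, chr4:95193054-95193353, plus strand: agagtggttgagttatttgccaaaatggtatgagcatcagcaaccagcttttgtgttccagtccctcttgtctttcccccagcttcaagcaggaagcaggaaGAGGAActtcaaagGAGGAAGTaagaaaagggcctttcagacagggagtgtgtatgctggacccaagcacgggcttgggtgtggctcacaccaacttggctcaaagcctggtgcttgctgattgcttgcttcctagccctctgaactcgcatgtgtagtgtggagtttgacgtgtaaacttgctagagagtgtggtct
Gm46343, chr12:25303526-25303825, plus strand: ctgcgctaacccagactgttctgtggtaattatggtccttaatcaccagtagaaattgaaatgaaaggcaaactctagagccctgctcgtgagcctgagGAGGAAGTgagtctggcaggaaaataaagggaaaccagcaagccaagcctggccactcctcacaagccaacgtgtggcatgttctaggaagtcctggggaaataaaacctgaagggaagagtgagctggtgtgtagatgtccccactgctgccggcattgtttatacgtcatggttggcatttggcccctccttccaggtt
Morrbid, chr2:128429302-128429601, minus strand: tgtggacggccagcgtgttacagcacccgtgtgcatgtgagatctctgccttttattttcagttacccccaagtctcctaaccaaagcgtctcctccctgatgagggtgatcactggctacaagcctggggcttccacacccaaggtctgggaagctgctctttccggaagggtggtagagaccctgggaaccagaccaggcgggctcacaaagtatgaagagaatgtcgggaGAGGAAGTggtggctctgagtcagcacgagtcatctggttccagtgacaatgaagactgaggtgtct
Gm42215, chr3:39533917-39534216, minus strand: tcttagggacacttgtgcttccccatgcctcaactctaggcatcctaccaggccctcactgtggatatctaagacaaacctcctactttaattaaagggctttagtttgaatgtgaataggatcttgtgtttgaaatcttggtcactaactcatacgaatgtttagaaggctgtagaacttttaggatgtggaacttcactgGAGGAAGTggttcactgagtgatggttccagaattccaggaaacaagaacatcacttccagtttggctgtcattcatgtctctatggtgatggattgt

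Of the 57 genes, 10 had GAGGAAGT on either strand, a share of 17.5% (95% exact interval 8.75 to 29.9%). The share was 8.75% (7.09 to 10.7%) of 1017 lncRNA genes with a window inside another PU.1_2 peak and 2.79% (2.45 to 3.17%) of 8280 lncRNA genes whose window had no peak. Over 27025 genes of all kinds with a window in the table, 3.28% had it. The intervals of the desert windows and of windows in other peaks overlapped, and that of the desert windows lay above those without a peak. The shorter GAGGAA, which GAGGAAGT contains, was in 27 of the 57 (47.4%, 34.0 to 61.0%) in 41.1% (38.1 to 44.2%) of the windows in other peaks and in 28.6% of those without a peak, so the first and second intervals overlapped. For AGGAAGT, the last bases of GAGGAAGT, or its complement ACTTCCT, the share was 40.4% (27.6 to 54.2%) of desert windows, 18.4% (16.1 to 20.9%) in other peaks and 9.05% without a peak, and these intervals did not overlap. Whether desert windows stood apart from other peaks thus depended on the letters searched. Gm45805, under one of the strongest peaks of the set, had neither GAGGAA nor GAGGAAGT but held AGGAAGT. These windows are the starts of annotated transcripts and do not stand for the 10137 desert peaks that overlap no non-coding gene.

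Desert peaks were weaker and sparser than the rest of the list. The score of a peak is the one given by the authors' peak caller, read as minus 10 times log10 of its p-value, and it is comparable only within 1 library. Its median was 154 for the desert peaks (quartiles 98.4 and 385; range 70.1 to 3233) and 254 for the other 62591 peaks. Ranked over the whole list, desert peaks stood at a mean percentile of 41.5 and the others at 51.6, a difference of -10.1 (95% interval -11.3 to -8.95, linear fit over all peaks with standard errors grouped by chromosome). A score of 1000 or more was reached by 1356 desert peaks, 11.4% of them, beside 17.6% of all PU.1_2 peaks and 18.8% of the others. The ranges of the groups overlapped over their whole length. Peaks were also narrower, with a median width of 936 bp against 1008 bp.

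Desert sequence, taken as gaps between coding genes less 100 kb at each end, came to 757 Mb, 28.5% of the sequence between the outer genes of the chromosomes, and held 15.7 peaks per Mb. The remaining sequence held 32.9 per Mb. Stretches that are unsequenced or too repeated to map were not taken out of either length. Of the desert sequence, 46.9 Mb was on the Y chromosome, with 1.32 peaks per Mb. Outside genes, density, score and support in the second library were lower in each farther distance class. Peaks within 10 kb outside a gene had a density of 45.9 per Mb and a median score of 286. At 100 to 200 kb these values were 18.3 per Mb and 171, at 200 to 500 kb 15.2 per Mb and 150, and beyond 500 kb 13.5 per Mb and 142. At the 100 kb limit, the nearest peaks inside were 100019 bp from Ttc29 (score 198) and 100050.5 bp from Tmem64 (score 1143). The nearest outside were 99994 bp from Slco6d1 (score 114) and 99993.5 bp from Ralyl (score 137), and none of the 4 had a PU.1_3 peak. The most remote peak of all lay 2191 kb from a coding gene, between Celf4 and Pik3c3, with a score of 101.

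**Figure D1:**
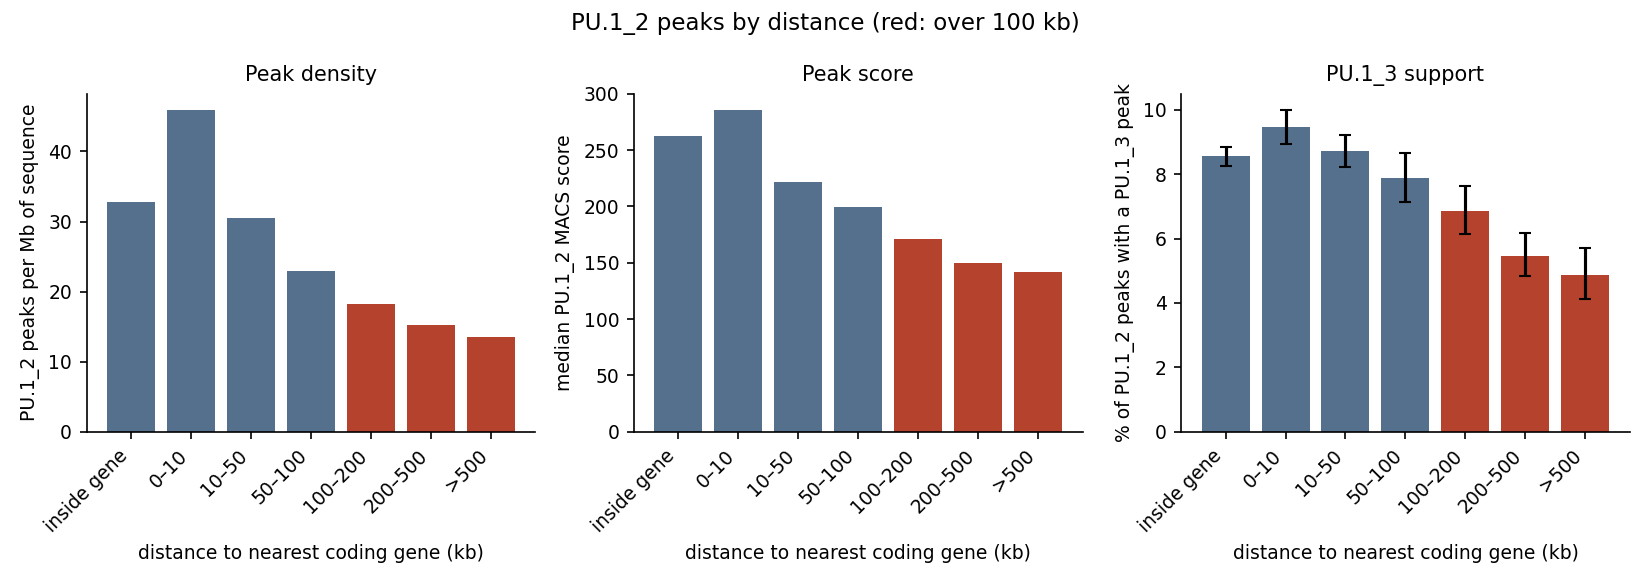
PU.1_2 peaks by distance of their centre from the nearest protein-coding gene span, with desert classes in red: peaks per Mb of sequence (left), median score (middle) and the share with an overlapping PU.1_3 peak with its 95% exact interval (right). From the 0 to 10 kb class outward each panel steps down, density from 45.9 to 13.5 per Mb and support from 9.45% to 4.86%.

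A PU.1_3 peak overlapped 694 of the 11903 desert peaks, 5.83% (95% exact interval 5.42 to 6.27%), where the share over all PU.1_2 peaks was 8.24%. Among the other peaks it was 8.70% (8.48 to 8.92%). The PU.1_3 list is much shorter, with 6169 peaks, and 699 of these (11.3%, 10.5 to 12.2%) met the same distance rule. All 699 overlapped a desert peak of PU.1_2, and likewise all 6169 of the PU.1_3 list overlapped some PU.1_2 peak, so that overlap is the same as over the whole list. By distance, support was 6.86% at 100 to 200 kb, 5.46% at 200 to 500 kb and 4.86% beyond 500 kb, and the intervals of neighbouring classes overlapped. The merged list of the series, whose making is not stated, covered 6208 desert peaks (52.2%), beside 66.5% of all PU.1_2 peaks and 69.2% of the others.

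The direction of this difference turned once peaks of like score were compared. Without regard to score, the odds of a PU.1_3 peak were lower for desert peaks than for others, with an odds ratio of 0.650 (0.591 to 0.714). Within 10 equal bins of the PU.1_2 score the odds ratio was 1.38 (1.24 to 1.53, logistic fit, standard errors grouped by chromosome). Against peaks between genes within 100 kb it was 1.28 (1.14 to 1.43). Score bins 1, 3 and 4, counted from the lowest, held no supported peak and were left out of these binned fits. Support was almost confined to the upper bins: 691 of the 694 supported desert peaks were in the top 2. In the ninth bin, with scores of 871 to 1662, 92 of 777 desert peaks (11.8%, 9.65 to 14.3%) and 8.89% (8.22 to 9.60%) of the others had a PU.1_3 peak. In the tenth bin the counts were 599 of 764 desert peaks (78.4%, 75.3 to 81.3%) and 72.1% (71.0 to 73.2%) of the others. Only 6.42% of the desert peaks fell in that top bin, against 10.7% of the others, and 14.3% fell in the lowest, against 9.18%. Scores stop growing near 3100, and at or above that value 264 of 268 desert peaks (98.5%) and 96.9% of 2388 other peaks were supported.

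**Figure D2:**
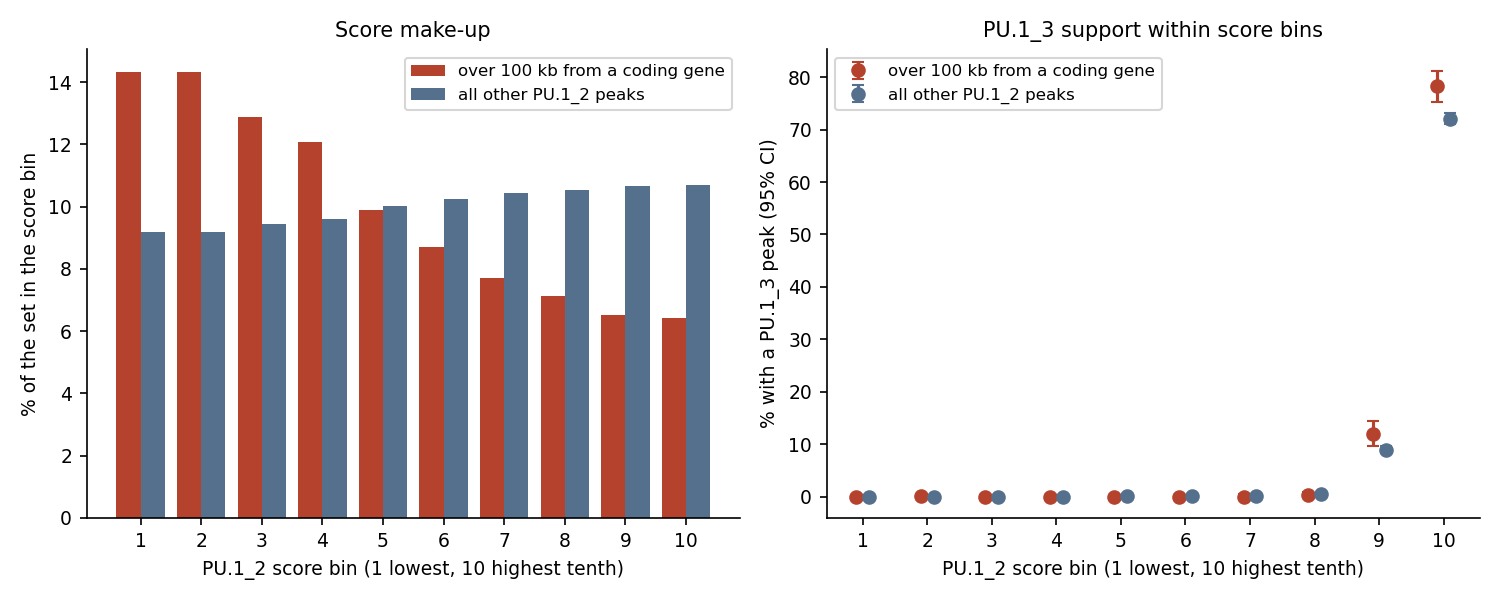
Share of desert peaks (red) and of all other PU.1_2 peaks (blue) in each of 10 equal bins of the PU.1_2 score (left), and the share of each with a PU.1_3 peak in that bin with 95% exact intervals (right). Desert peaks fill the low bins (14.3% of them in the lowest, 6.42% in the highest), and support is 78.4% for desert peaks and 72.1% for others in the highest bin.

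Supported desert peaks had a median PU.1_2 score of 2668 and a median width of 1219 bp, against 145 and 928 bp for the 11209 without a PU.1_3 peak. In PU.1_3 their scores ran from 70.0 to 3100 with a median of 144, and 188 of them (27.1%) were under 100. The median for the 5445 supported peaks nearer genes was 135. Within the PU.1_3 list itself, peaks meeting the distance rule differed from the rest in mean percentile by 1.89 (-0.488 to 4.26), an interval that includes 0. Scores of 1000 or more in PU.1_3 were reached by 15 supported desert peaks (2.16%) and by 82 other supported peaks (1.51%). On the X chromosome 13 of 669 desert peaks had support (1.94%, 1.04 to 3.30%), against 6.07% (5.63 to 6.53%) on the autosomes, and among the other peaks of the X the share was 3.36%. Without the X and Y the odds ratio at like score was 1.36 (1.21 to 1.53).

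**Figure D3:**
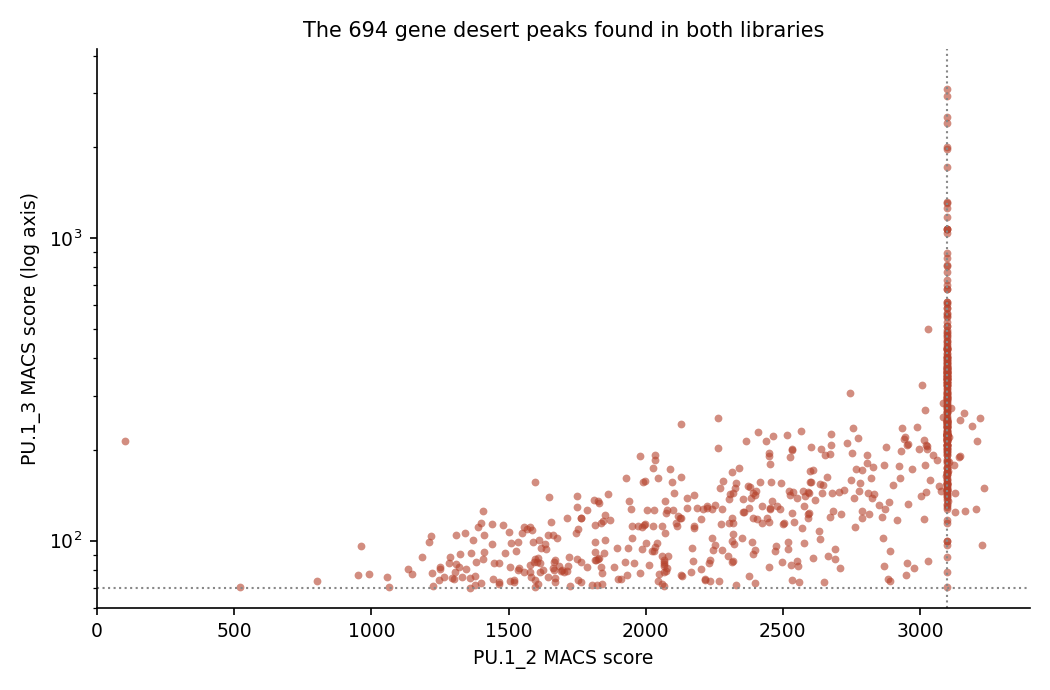
PU.1_2 score (x axis) and PU.1_3 score (y axis, log scale) of the 694 desert peaks found in both libraries, 1 point per peak, with the score of 3100 and the lowest listed score of 70 as dotted lines. Most points lie between 70 and 400 on the y axis while the x axis runs up to its stop near 3100, where PU.1_3 scores still range widely.

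The 12 desert peaks with the highest PU.1_3 score all had a PU.1_2 score of exactly 3100, and 7 of them had another PU.1_2 peak within 12500 bp. First was chr16:70803104-70804440, with 3100 in PU.1_3 too. It lay 234 kb from Gbe1, the glycogen branching enzyme, and 1224 kb from Robo1, a receptor for Slit guidance cues. Next came a peak between Sall3 and Galr1 at chr18:81696501-81697909, with a PU.1_3 score of 2935 and both genes about equally far, 710 kb and 695 kb. The third, at chr14:16009200-16011393 with 2506 in PU.1_3, lay inside the lncRNA gene 1700062C10Rik between Lrrc3b and Oxsm. The fourth, at chr3:39579169-39581842 with 2399, lay inside the lncRNA gene Gm30063 in the desert between Fat4, a giant cadherin, and Intu.

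The next 4 of these peaks overlapped no annotated gene. They were chr1:56241019-56242612 between Plcl1 and Hsfy2 (PU.1_3 score 1996), chr2:178832837-178834176 between Cdh26 and 4930591A17Rik (1960), chr10:72268263-72269685 between Ipmk and Zwint (1709), and chr1:184407691-184409022 between Dusp10, a MAP kinase phosphatase, and the homeobox gene Hlx (1316). The last 4 were chr18:90038207-90039572 between Dok6 and Tmx3 (1303), chr10:25701339-25702990 between Smlr1 and Tmem200a, inside the lncRNA gene Gm36543 (1253), chr11:112017325-112018678 between Gm11677 and Sox9 (1174), and chr10:122310878-122312332 between Rxylt1 and Avpr1a (1074). None of the genes beside these 12 peaks was on the B-lineage list described further on. The distances to the nearer gene ran from 137 kb (Avpr1a) to 695 kb (Galr1).

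A few peaks, picked after their values were seen, went against the general link of score and support. At or above 3100, 4 desert peaks had no PU.1_3 peak: one between Pde7b and Ahi1 (3186), one between Fam76b and Sesn3 (3100.48), one between Phlda1 and Krr1 (3100) and one between Runx1 and Setd4 (3100). All 4 overlapped an lncRNA gene (Gm33510, Gm39292, Gm30624 and 1700029J03Rik). Over all desert peaks the share was 12.7%, and 4 peaks picked in this way do not show a link with support. At the other end, a peak of score 103 between Tmem38b and Zfp462 overlapped a PU.1_3 peak of score 213, and its nearest PU.1_2 peak centre was 0.972 kb away. The widest desert peaks were 11057 bp long, over the pseudogene Gm35969 between Cdh10 and Cdh12 (3100 in PU.1_2, 279 in PU.1_3), and 8754 bp long, 1437 kb from Pcdh10 (3100 and 351). Another, 6734 bp long with a score of 974 and no PU.1_3 peak, covered the ribosomal RNA copy Rn18s-rs5. Reads from repeated sequence such as this can come from other copies.

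Desert peaks had fewer neighbours. Another PU.1_2 peak centre lay within 12500 bp of 5116 desert peaks (43.0%, 42.1 to 43.9%), beside 63.7% of all PU.1_2 peaks and 67.7% of the others. The odds ratio was 0.360 (0.308 to 0.420), and within score bins it was 0.391 (0.337 to 0.454). The median distance to the nearest peak centre was 15.9 kb for desert peaks and 6.90 kb for the others. Joining desert peaks with gaps of at most 12500 bp gave 8615 groups, of which 6620 were single peaks, 55.6% of all desert peaks. The other 1995 groups held 2 to 15 peaks, and 290 of them held 4 or more.

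By group size, the median score per peak was 135 for single peaks, 169 in pairs, 220 in groups of 3 and 204 in groups of 4. A PU.1_3 peak was present in 4.21% of single peaks, 12.02% of pairs, 24.6% of groups of 3 and 38.6% of the 290 groups of 4 or more. That share counts a group once, whatever its number of peaks. Counted per peak, support was 4.21% among single peaks, 6.31% in pairs, 9.18% in groups of 3 and 9.33% in groups of 4. Supported desert peaks had a neighbour within 12500 bp in 57.2% of cases (53.4 to 60.9%), against 42.1% (41.2 to 43.0%) of the unsupported.

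The largest group held 15 peaks over 74.98 kb, chr10:17515347-17590322, and ended 134 kb from Cited2, a coregulator that binds CBP and p300. Its scores ran from 104 to 2250 with a median of 671. Its strongest peak had no PU.1_3 peak, while the one with a score of 2040 had one of 98.1. The second held 13 peaks over 70.3 kb, chr8:126755029-126825298, between Irf2bp2, a corepressor that binds IRF2, and Tomm20, a mitochondrial import receptor. Its first 2 peaks, both at 3100, had PU.1_3 scores of 236 and 378, and the second of them holds the Gm45805 window printed above. The other 11 had scores of 113 to 1991 and no PU.1_3 peak.

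In the desert beside Myc, the growth-control transcription factor, 12 peaks stood together at chr15:63604970-63670323, 1615 kb beyond Myc and 106 kb from Gsdmc. The far side of this desert is known for an enhancer cluster used by blood cells. Here 3 peaks had support: 2 at 3100 in PU.1_2 with 137 and 132 in PU.1_3, and 1 at 1218 with 103. Another 12 peaks lay at chr10:43702028-43766255, 119 kb from Cd24a, a surface protein of B cell precursors, and 109 kb from Qrsl1. Among these, 3 reached 2170 to 2389 in PU.1_2, but only the one at 2170 had a PU.1_3 peak, of 94.3.

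The last 2 of the 6 largest groups held 11 peaks each. The one at chr13:83035703-83113093 lay 391 kb from Mef2c, a transcription factor used in early B cells, and had a single supported peak, at 3100 in PU.1_2 and 546 in PU.1_3. Its other 10 peaks had scores of 125 to 1317. The one at chr12:79950149-80005063 lay between Rad51b, a recombination repair gene, and Zfp36l1, an RNA-binding protein that promotes mRNA decay, 102 and 103 kb away. Its scores ran from 108 to 1198, and none of its peaks had a PU.1_3 peak.

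**Figure D4:**
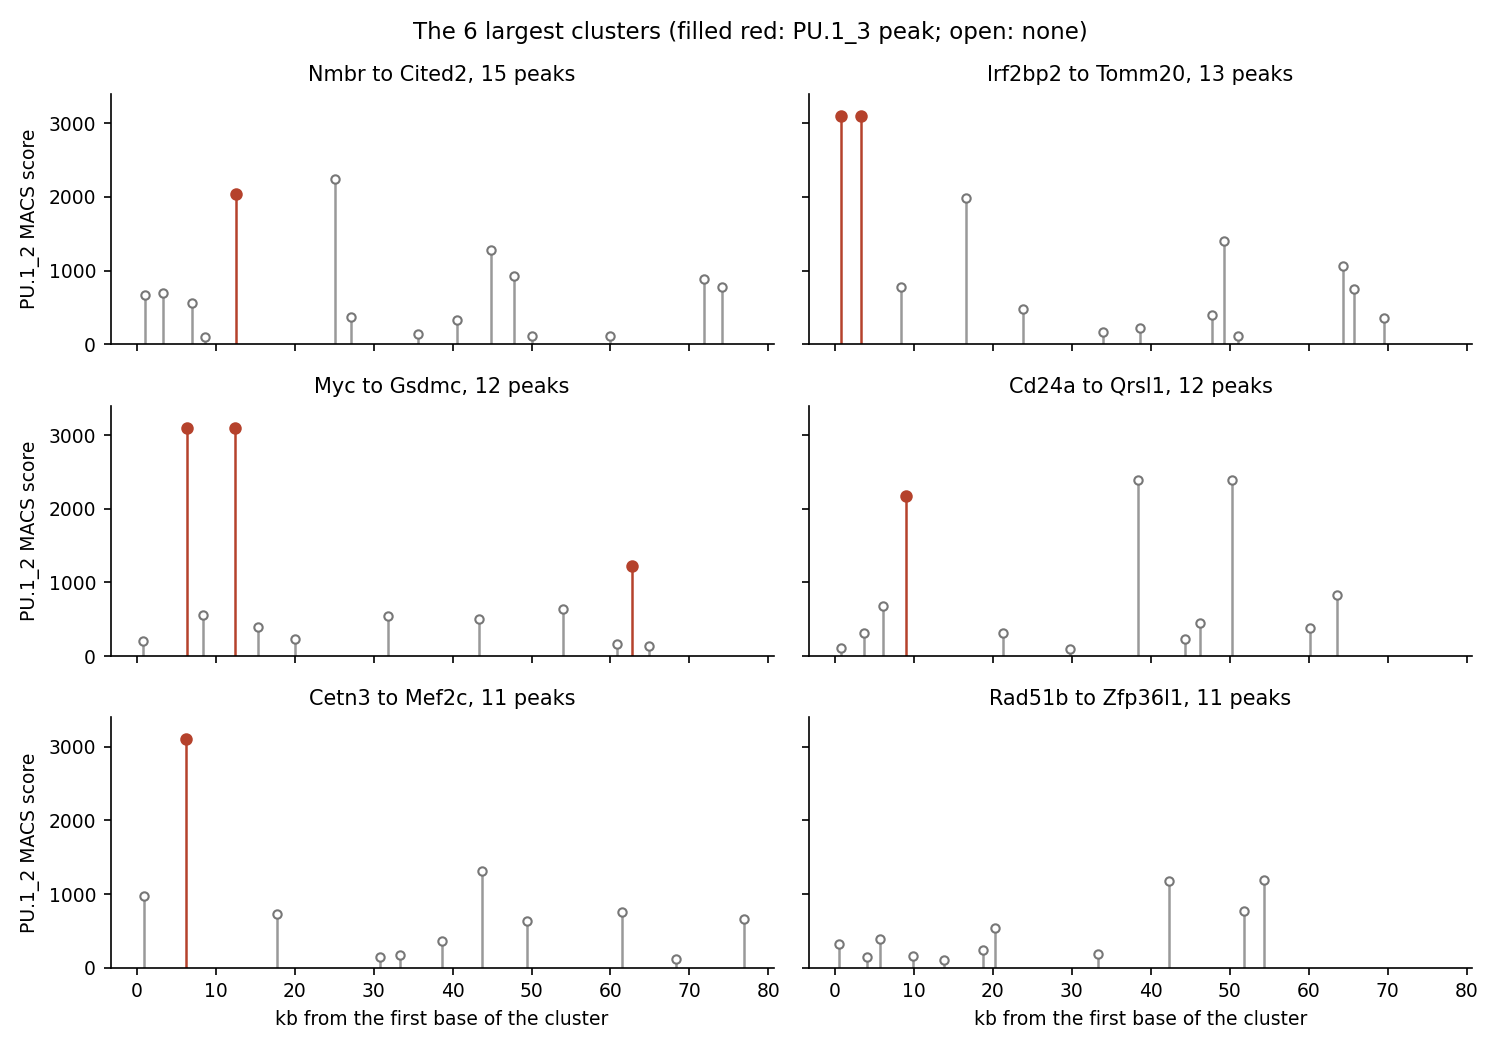
The 6 largest groups of desert peaks, 1 panel each, with the position of each peak centre in kb from the first base of the group (x axis) and its PU.1_2 score (y axis). Filled red points have a PU.1_3 peak and open points have none. Each group has 0 to 3 filled points, and strong and weak peaks stand side by side.

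There were 1670 gaps between coding genes longer than 200 kb, with a median length of 417 kb. Of these 1274 (76.3%) held a desert peak and 404 (24.2%) a supported one, and 50 further desert peaks lay beyond the outermost genes of chromosomes. The 400 deserts with 10 or more peaks held 8588 desert peaks, 72.2% of the set. Among 214 deserts with at least 1 Mb beyond the 100 kb margins, the median was 11.9 peaks per Mb with quartiles of 9.37 and 15.8. The Igk locus held 239 peaks, of which 26 were supported. The Igh V region between Adam6a and Zfp386 held 121 peaks, 52.6 per Mb, with 10 supported. Nearly as dense was the desert between Myc and Gsdmc, with 83 peaks, 52.3 per Mb, and no receptor gene. The 5 with the lowest density were all on the Y chromosome, which had 1.32 desert peaks per Mb against 11.9 on the X and 13.4 to 23.2 on the autosomes.

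The 83 peaks beside Myc included 17 with a score of 1000 or more, and 12 had a PU.1_3 peak. Of those 12, 8 lay 140 to 654 kb from Myc and the other 4 lay 1597 to 1677 kb from it, near Gsdmc. The highest PU.1_3 scores were 402, at chr15:63586116-63587615 and 1597 kb from Myc, and 379, at chr15:62350493-62352082 and 361 kb from Myc. Both had 3100 in PU.1_2. Between these stretches a peak of 2744 stood 834 kb from Myc without a PU.1_3 peak.

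In the desert between Nmbr, a neuromedin B receptor, and Cited2, 107 peaks lay over 2.95 Mb (38.9 per Mb) and 12 were supported. The highest PU.1_3 scores there were 376 and 358, at 1523 and 526 kb from Nmbr. The 3.70 Mb between Zeb2, a zinc finger repressor, and Acvr2a, an activin receptor, held 87 peaks, 24.9 per Mb. Of its 6 supported peaks, 4 lay 129 to 315 kb from Zeb2, the strongest with 3143 in PU.1_2 and 189 in PU.1_3. Between Fstl5 and Rapgef2, a Rap activator, there were 82 peaks (38.1 per Mb). All 9 supported ones lay 143 to 801 kb from Rapgef2, with PU.1_3 scores of 74.5 to 405.

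**Figure D5:**
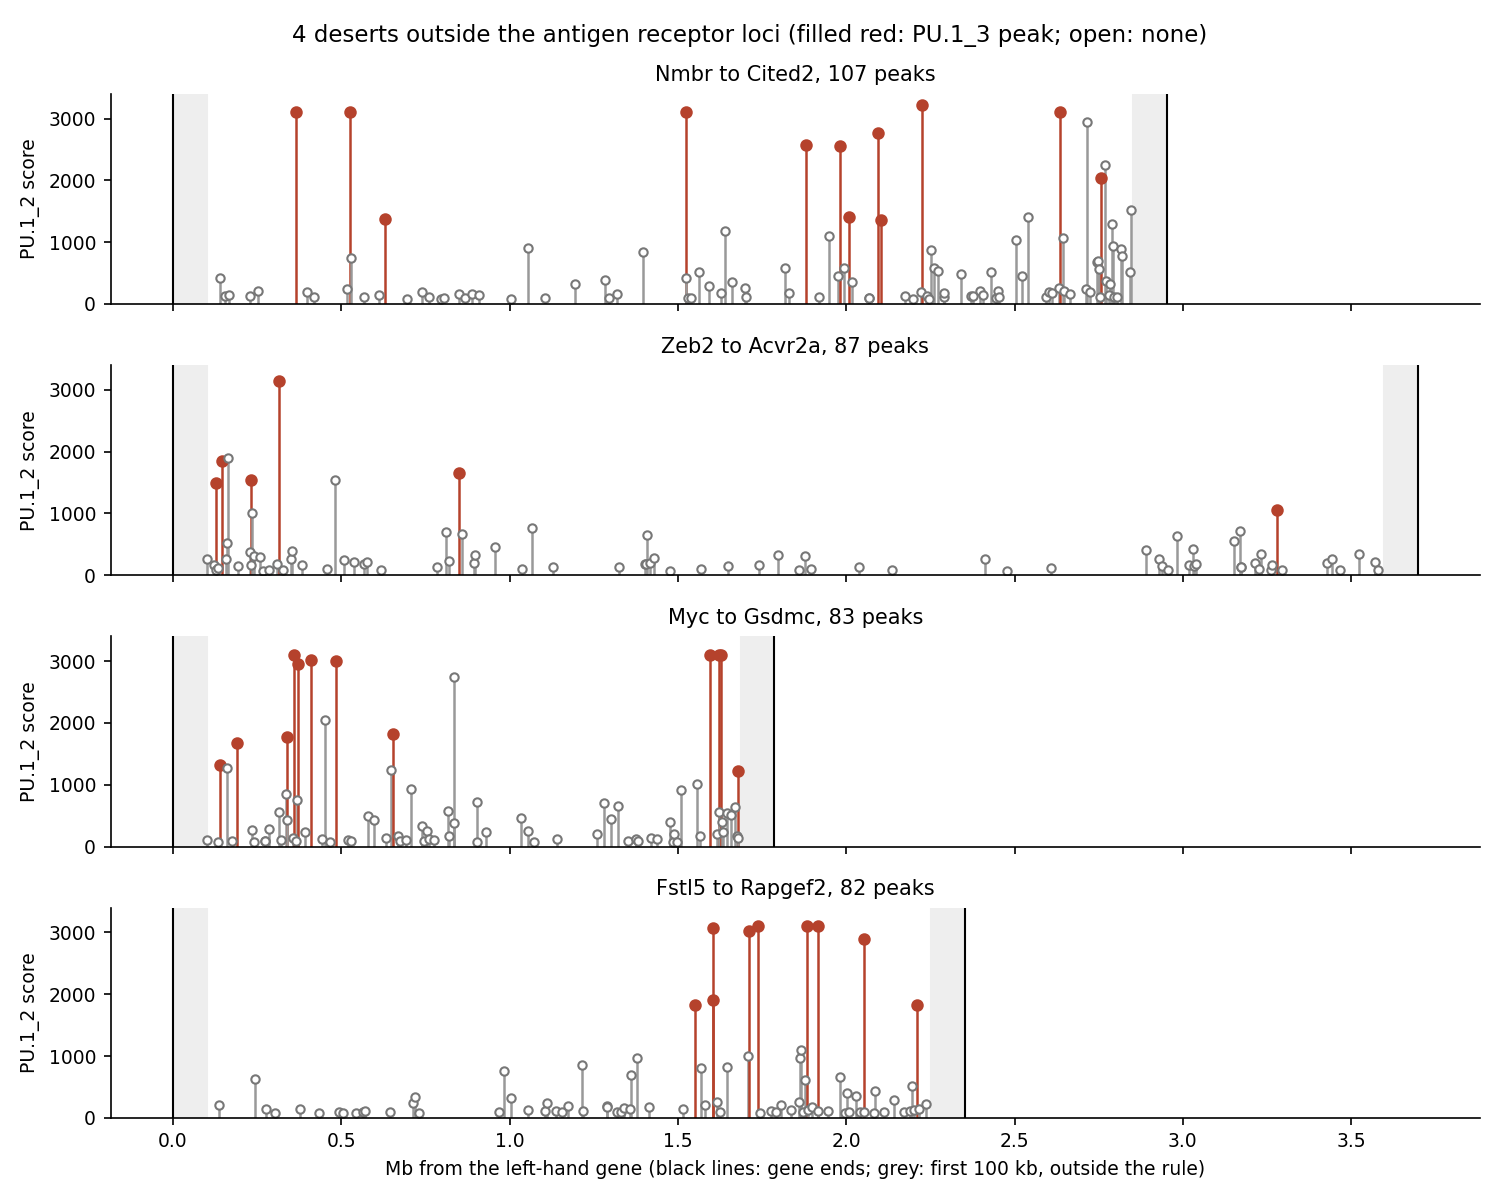
PU.1_2 score (y axis) of each peak along 4 of the 6 deserts with the most peaks, those outside the antigen receptor loci, by distance from the left-hand gene in Mb. Filled red points have a PU.1_3 peak, black lines mark the gene ends, and grey bands the first 100 kb that the rule leaves out. Supported peaks stand in 2 stretches beside Myc, near Zeb2 for 4 of 6, and within 801 kb of the right-hand gene for Fstl5 to Rapgef2.

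Which genes stand beside a desert peak was described for 7 lists of genes, counting for each peak the first coding gene on its left and right. A flanking gene is a neighbour on the chromosome, and no link between peak and gene was measured. Of all 21774 coding genes, 10.1% flanked a desert peak and 3.57% a supported one, and most genes cannot, because they border no desert. Among the 2777 genes next to a desert the shares were 79.2% and 27.9%.

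Of 35 B-lineage transcription factors, 15 bordered a desert, 14 flanked a desert peak and 11 a supported one. Of their 395 pairs of gene and peak, 8.61% had support, beside 5.83% of the 23756 pairs of all genes. Ebf1, a founding factor of the B lineage, flanked 30 desert peaks, 2 of them supported, the best at 3100 and 613, 445 kb away. Runx1, needed for blood stem cells and B cell precursors, flanked 34, of which 6 were supported, the best at 3100 and 588 and 206 kb away. Mef2c flanked 35, with the 1 supported peak given above. Bcl11a, needed for early B cells, flanked 46 with 4 supported, the best at 3100 and 370, 169 kb away.

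Growth and survival genes bordered deserts in 9 of 18 cases. Of the 18, 9 flanked a desert peak and 8 a supported one. Support was present in 11.6% of 267 pairs, of which Myc gave 106. Cdk6, a G1 cyclin-dependent kinase, had 5 desert peaks and 1 supported, at 3100 and 562 over the pseudogene Gm18985, 128 kb away. That peak had no coding gene on its other side and so lay outside the deserts between genes. The 9 bordering and the 9 flanking genes thus need not be the same. Ccnd2, the cyclin D2 gene, had 6 with 1 supported, at 3100 and 258. Of the 9 flanking genes, Bcl2l11, the death-promoting BIM gene, was the one without a supported peak, and its 7 desert peaks reached 944.

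Cytokines, receptors and chemokine receptors flanked desert peaks in 9 of 36 cases and supported ones in 4. These were the chemokine Cxcl12 (19 desert peaks, 4 supported, best PU.1_3 score 343), its receptor Cxcr4 (19, 2 supported, 269), the endotoxin receptor Tlr4 (21, 2 supported, 184) and the NF-kB inhibitor Tnfaip3 (9, 1 supported, 176). Only 2 of the 29 genes for B cell receptor signalling and surface proteins bordered a desert. Ptprc, which encodes CD45, had 47 desert peaks and 2 supported, the best at 3100 and 254, and Cd24a had 12 with 1 supported. Stem cell and myeloid regulators flanked desert peaks in 10 of 26 cases and supported ones in 4, with support in 3.55% of 141 pairs. They were Meis1 (29 desert peaks, best PU.1_3 score 155), Maf (14, 152), Cebpb (6, 114) and Gata3 (20, 74.1), with 1 supported peak each except Cebpb with 2.

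For comparison, 2 lists hold genes known mainly from other tissues. Of 50 neuronal adhesion and synapse genes, 44 bordered a desert, 43 flanked a desert peak and 26 a supported one. Support was present in 4.05% of their 1432 pairs. A peak with a listed gene on both sides, as between Cdh10 and Cdh12, counts in 2 pairs. Besides Robo1, the strongest were Pcdh9 (124 desert peaks, 5 supported, best PU.1_3 score 805), Pcdh7 (111, 2 supported, 773) and Lrrc4c (67, 4 supported, 495). Of 60 developmental transcription factors, 48 bordered a desert, 43 flanked a desert peak and 19 a supported one, with support in 6.84% of 395 pairs. Their leading genes were Sox9 (22 desert peaks, 3 supported, best PU.1_3 score 1174), Sox2 (12, 2 supported, 1067), Nr2f1 (25, 2 supported, 342) and Tbx18 (12, 2 supported, 308). For each list, the number of genes flanking a supported peak was taken as a percentage of the number next to a desert. All flanking genes were counted, also where the supported peak lay outside the deserts between genes, as for Cdk6. The percentage is thus not strictly a share of the genes next to a desert. It was 73.3% for B-lineage factors and 88.9% for growth and survival. For stem cell and myeloid regulators it was 36.4%, and for cytokines and receptors 36.4%. Both of the 2 B cell receptor and surface genes had a supported peak. The percentage was 59.1% for neuronal genes and 39.6% for developmental factors, so the blood-related lists lay on both sides of the comparison lists. The median number of desert peaks per flanking gene differed too, at 27, 21, 16, 7, 29.5, 31 and 8 in that order. Over all flanking coding genes it was 6. The part of this number in these percentages was not tested.

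Non-coding genes gave the closest annotation for part of the set. The lncRNA-overlapping desert peaks had a median score of 193 and support in 7.29% (6.03 to 8.72%), against 149 and 5.53% (5.10 to 6.00%) for the 10137 desert peaks over no non-coding gene. Support was 13.7% (7.49 to 22.3%) for the 95 peaks on V segments, whose median score was 461. For the 114 on pseudogenes it was 9.65% (4.92 to 16.6%), with a median score of 207. Support was 0 of 26 on transcribed pseudogenes (upper bound 13.2%, median score 151). On V segment pseudogenes it was 0 of 22 (upper bound 15.4%, median score 154). These shares were not compared at like score. Only 354 desert peaks lay within 1 kb of an end of a non-coding gene, and 33 of these (9.32%, 6.50 to 12.8%) had support. After the 3 lncRNA genes named above, the strongest supported overlaps were Gm35551 between Haao and Zfp36l2 (3100 in PU.1_2, 1038 in PU.1_3), Junos beside Jun (3100 and 566), Gm18985 and the pseudogene Gm22223, 2122 kb from Cdh8 (3100 and 467). Of the windows printed above, that of Gm40930, 226 kb from Jarid2, lay in a peak of 3100 and 332. Those of Gm42215 (546), Gm12708 (422), Morrbid (363), Gm46343 (259) and Gm20740 (208) lay in peaks with the PU.1_2 score given and no PU.1_3 peak. These 5 were chosen from the 10 that hold GAGGAAGT. It was in 0 of the 8 lncRNA genes whose window lay in a supported peak and in 10 of the 49 in an unsupported one, while AGGAAGT was in 3 of the 8 and in 20 of the 49. With 8 windows these differences were not tested.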

How the data were processed

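PU.1 ChIP-seq peaks of 2 induced pro-B cell libraries were analysed. The submitters' processing notes name Trim Galore, Bowtie and MACS 1.4.1, and the build mm10. Not given in the sources used here are the use of the input as control and the making of the merged list. The deposited lists, 1 per library, carry the score the authors' peak caller gave, which has no normalization between libraries. Scores start at 70 and stop growing near 3100. The deposited merged list gives positions only, since its score is always 0. Read depth is unknown, which limits any comparison of the libraries.

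Distances run from peak centres to protein-coding gene spans of the RefSeq table (21774 genes on 21 chromosomes, after leaving out 348 rows placed on scaffolds). Peaks overlapping by at least 1 bp counted as shared. Odds ratios came from logistic fits, and percentile differences from linear fits, with errors grouped by chromosome (statsmodels 0.14.6, pandas 2.3.3). They ran over all PU.1_2 peaks unless a smaller comparison is named. Fits within score bins left out bins in which no peak, or every peak, had the outcome. The percentile difference in PU.1_3 score ran over all PU.1_3 peaks. Other intervals are exact binomial (Clopper-Pearson, 95%, scipy 1.17.1) and cover counting error only. Peaks of 1 library are not replicates, so no interval speaks for other cultures. The fits were tested on simulated data in which peaks were drawn independently, which does not test the grouping of errors by chromosome. Windows for the motif count were 1 per gene, the first listed.

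The peaks and the 7 gene lists were chosen with earlier results of these data known. Named are the 12 desert peaks highest in PU.1_3, the 6 largest groups and 6 deserts with most peaks, up to 4 genes per list and 8 non-coding genes over supported peaks by PU.1_3 score, and the 2 peaks nearest the limit on each side; a few items that this rule names are not reported here. Alternatives covered the distance, gene set, score minimum, overlap, window, score bins and library.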

Additional observations from a re-analysis of the deposited data

How the results depend on the processing

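Of 63 alternative values, 43 were classed as the same, 19 as moved and 1 as reversed. For odds ratios and differences, the same means the same direction with an interval that still excludes no difference. For counts it means within a factor of 1.5, and for shares and densities a value inside the reported interval. The reversal is the odds ratio of a PU.1_3 peak, 0.650 without score adjustment; with 100 score bins, other distances, gene sets, overlaps and chromosomes it stayed above 1, at 1.28 to 1.5. The score and neighbour differences kept their direction in every alternative run. With a limit of 50 kb or 200 kb, support was 6.44% or 5.23%, density 17.3 or 14.4 per Mb (15.7 reported), and 200 kb left 7499 peaks. Counting distance from all RefSeq genes left 2810 peaks, with support of 4.91% and 12.2 per Mb. Density was 15.2 per Mb with receptor segments as genes and 15.3 per Mb without LOC, Gm and Rik genes. A 50% reciprocal overlap gave support of 5.41%. The share with a neighbour was 39.4% at scores of 100 or more, 20.2% within 5 kb and 62.7% within 25 kb. Applying the rule to PU.1_3 alone, without replicate 2, gave 699 peaks, 11.3% of its list. In place of GAGGAAGT, GAGGAA was in 47.4% of windows and AGGAAGT in 40.4%. With a 50 kb limit, 17 B-lineage factors flanked a supported peak, against 11. The main limits are unknown depth and the ceiling near 3100, within which bins cannot match true strength. Alternatives for chromosomes X and Y, for the shorter motifs, for windows that touch a peak, for neighbours within score bins, for peaks between genes and for the B-lineage count were chosen after seeing the data. No paired analysis was possible because both peak lists belong to 1 group.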
